A study of Homo sapiens with 12 samples.

Results

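The 8 genes described here, CCND1, LTO1, FGF19, ANO1, FADD, PPFIA1, CTTN and SHANK2, lie next to each other on chromosome band 11q13, a stretch often amplified as a block in squamous cancer, and were chosen by name from that band. They are 8 of the 34694 gene symbols in the expression tables of 2 esophageal cancer lines. The table of KYSE410 lists 7 of them and that of KYSE150 all 8. FGF19 in KYSE410 was not analysed here.

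KYSE410 and KYSE150 are established human esophageal squamous carcinoma lines, labelled wild type. Messenger RNA was sequenced from cells kept at 0.5% oxygen for 48 h (hypoxia) or at 21% oxygen (normoxia), with 3 libraries in each of 4 groups: KYSE410 hypoxia, KYSE410 normoxia, KYSE150 hypoxia and KYSE150 normoxia. The labels give the normoxic libraries the time point 0, while the series' own text states 1 incubation time for both conditions. No label says whether the replicates are separate cultures; p-values therefore cover only the spread among these libraries, which may be technical.

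Amplification of 11q13 raises the copy number of many neighbours together, and cyclin D1 and cortactin are among the genes most often discussed as drivers of the amplicon. The genes share an address rather than a pathway: they act in the cell cycle (CCND1), ribosome recycling (LTO1), hormone signalling (FGF19), chloride transport (ANO1), death receptor signalling (FADD) and cell adhesion and scaffolding (PPFIA1, CTTN, SHANK2). Low oxygen is sensed through hypoxia-inducible factors, which raise the transcription of a set of target genes, while many other mRNAs fall. The copy number of these genes was not measured in the files used here.

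On hg38 the block runs from 69641087 to 71252577 on chromosome 11, over 1.61 Mb in the GENCODE 29 annotation. All 8 are protein-coding genes. CCND1 (69641087 to 69654474, plus strand) comes first and runs tail to tail into LTO1 (69653076 to 69675416, minus strand). The ends of the pair overlap by 1399 bases. The strand setting of the counting is not given in the sources used here, so reads in that overlap could have been assigned to either gene, and the values of both carry that uncertainty. FGF19 (69698232 to 69704642, minus strand), ANO1 (70078302 to 70189528, plus strand), FADD (70203163 to 70207390, plus strand) and PPFIA1 (70270700 to 70385312, plus strand) follow. CTTN (70398404 to 70436584, plus strand) and SHANK2 (70467856 to 71252577, minus strand) close the block. FADD is the shortest of the 8, with 4228 bases of genomic sequence, and SHANK2 the longest, with 784722.

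Promoter sequence is shown for LTO1, FADD and PPFIA1, the 3 genes of the block whose hypoxia response differed between the lines by the test given below. RefSeq promoter sequence (GRCh38.p14) matched 4 of the 8 genes by symbol, ANO1 besides these 3. CCND1, FGF19, CTTN and SHANK2 are named only. Each stretch is written 5′ to 3′ on the strand of the gene and ends before the earlier of the RefSeq and GENCODE starts. Capitals mark ACGTG or GCGTG on either strand, the core letters at which hypoxia-inducible factors are known to bind.
LTO1, chr11:69675417-69675603, minus strand: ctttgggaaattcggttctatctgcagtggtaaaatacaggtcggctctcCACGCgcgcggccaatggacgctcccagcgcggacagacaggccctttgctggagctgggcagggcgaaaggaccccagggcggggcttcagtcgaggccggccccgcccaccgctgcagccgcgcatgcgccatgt
FADD, chr11:70203046-70203162, plus strand: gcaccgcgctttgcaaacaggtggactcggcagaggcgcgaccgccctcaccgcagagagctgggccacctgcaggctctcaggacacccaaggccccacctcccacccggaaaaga
PPFIA1, chr11:70270440-70270689, plus strand: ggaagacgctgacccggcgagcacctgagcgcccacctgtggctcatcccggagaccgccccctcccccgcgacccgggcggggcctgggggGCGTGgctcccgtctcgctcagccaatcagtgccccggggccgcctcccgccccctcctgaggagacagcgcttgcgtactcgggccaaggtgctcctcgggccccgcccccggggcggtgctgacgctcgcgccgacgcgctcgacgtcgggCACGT
The LTO1 stretch of 187 bases holds 1 GCGTG, the FADD stretch of 117 bases neither motif, and the PPFIA1 stretch of 250 bases 1 ACGTG and 1 GCGTG. In the full windows of 300 bases around the RefSeq starts, LTO1 has 2 GCGTG, FADD neither and PPFIA1 1 of each. Of 35114 promoter windows of that length in the same table, 21.4% hold ACGTG, 36.5% hold GCGTG and 48.4% hold at least 1 of the motifs. The letters are described only; no binding was measured.

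The deposited values were taken to be FPKM, a unit inferred from the values. FPKM count fragments per length of transcript and per size of library and so allow levels of different genes to be compared per length. Depth is unknown. Same-group libraries correlated at r of 0.979 or more across genes, and KYSE150 normoxia replicate 2 stood apart from its group: its log2 differences from the others had an SD of 0.344, against 0.135 to 0.234 in the other 11 libraries. Sample-sheet numbers in the labels run from 50 to 55 in KYSE150, whereas KYSE410 has 56 to 58 in hypoxia and 38 to 40 in normoxia, so in KYSE410 oxygen level and library set, as read from these numbers alone, cannot be told apart. The numbers of the normoxic libraries also differ between the lines, so line and library set cannot be told apart in normoxia either. Of 12 squamous and epithelial markers, 10 reached 1 FPKM in KYSE410 and 4 in KYSE150, where KRT5, KRT14, TP63 and CDH1 averaged under 1 FPKM while KRT8, KRT18 and KRT17 were high. Of 7 fibroblast or mesenchymal markers, 1 reached 1 FPKM in KYSE410 hypoxia and none in KYSE410 normoxia. In KYSE150, 2 did so in hypoxia and 3 in normoxia. VIM, a mesenchymal filament gene among them, averaged 3.82 FPKM in KYSE410 hypoxia and 0.929 in KYSE410 normoxia, against 548.5 in KYSE150 hypoxia and 270.0 in KYSE150 normoxia. COL1A2, COL3A1, LUM and DCN of the same list averaged under 1 FPKM in every group. The part of these marker differences in the levels below was not tested.

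In both lines CTTN and CCND1 were the most abundant members in normoxia, and ANO1 was near 0. In KYSE410 normoxia the order of mean levels was CTTN (80.5 ± 2.60 FPKM, SD, n = 3 here and below), CCND1 (53.3 ± 0.876), PPFIA1 (21.8 ± 1.62), FADD (19.9 ± 1.06), LTO1 (16.3 ± 0.843), SHANK2 (2.03 ± 0.0955) and ANO1 (0.0142). PPFIA1 and FADD overlapped in that order, and no other neighbours did. In KYSE150 normoxia the order was CTTN (44.5 ± 2.16 FPKM), CCND1 (41.6 ± 2.51), FADD (15.4 ± 2.25), PPFIA1 (15.3 ± 3.21), LTO1 (6.17 ± 0.570), FGF19 (0.104), SHANK2 (0.0389) and ANO1 (0.0182). There CTTN and CCND1 overlapped only by the edge of their ranges, while FADD and PPFIA1 overlapped over most of theirs. FGF19 and SHANK2 also overlapped, as did SHANK2 and ANO1. Set among all genes above 0 in the same group, CTTN lay above 97.5% and CCND1 above 96.0% in KYSE410 normoxia, and above 94.9% and 94.5% in KYSE150 normoxia.

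**Figure D1:**
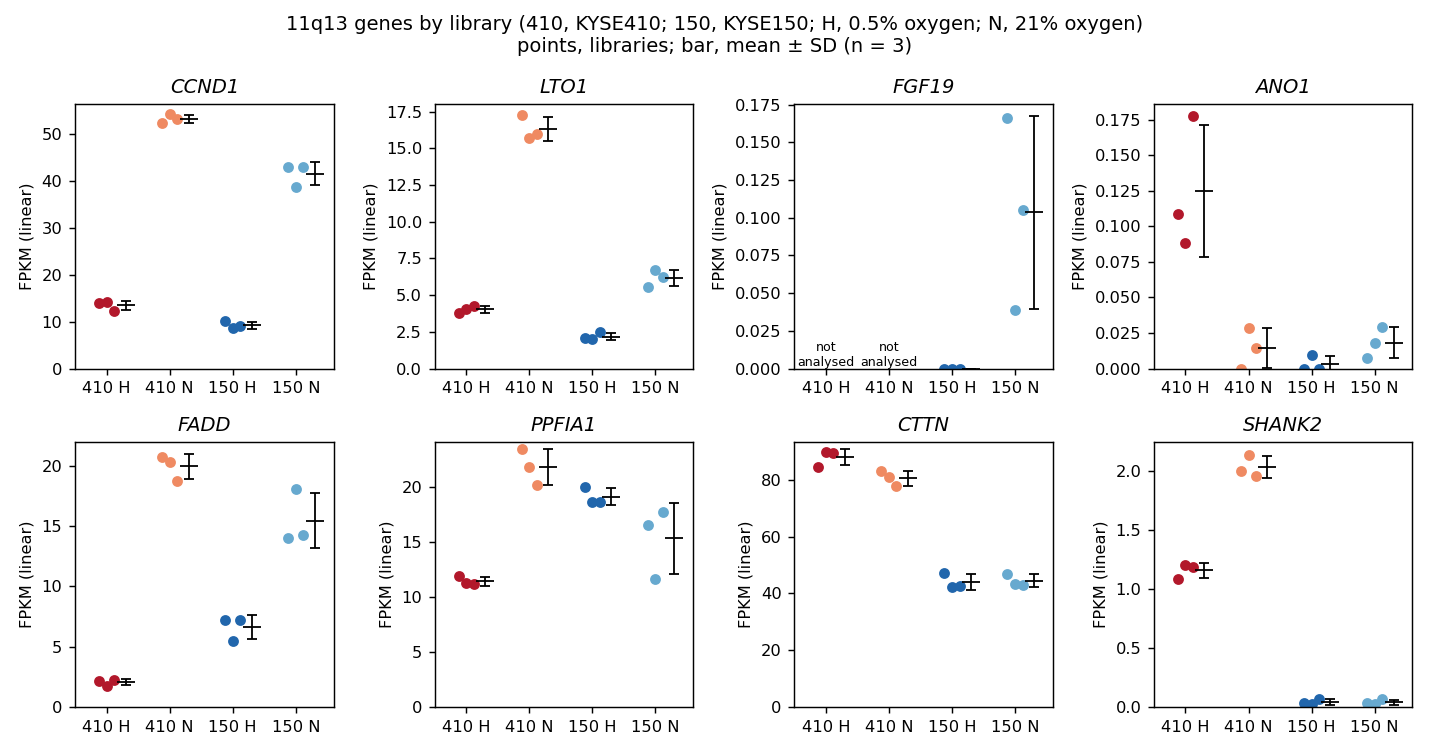
FPKM of the 8 genes by library on linear axes, with points for libraries and bars for the mean ± SD of 3. CCND1, LTO1 and FADD sit lower in hypoxia than in normoxia in both lines, CTTN is higher in KYSE410 than in KYSE150 at both oxygen levels, and SHANK2 is at 1.08 to 2.14 FPKM in KYSE410 and at most 0.0702 FPKM in KYSE150.

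The block was next compared between the lines in normoxia. Differences were fitted with limma on log2(FPKM + 1) over genes averaging 1 FPKM or more, so that a difference understates the change of low genes. A gene was called when its p, adjusted by Benjamini-Hochberg, was under 0.05. The tables were deposited separately for each line, and the levels are set side by side on the assumption that FPKM is on 1 scale in both. Of the 8 genes, 5 passed the filter (CCND1, LTO1, FADD, PPFIA1 and CTTN), and all 5 were higher in KYSE410 than in KYSE150. Over all 12653 genes tested, 79.2% were called, 40.4% higher and 38.8% lower in KYSE410, and the median difference was 0.02 on the log2 scale.

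LTO1 was the member that differed most of the 5. It had 17.3, 15.7 and 16.0 FPKM in the KYSE410 normoxia libraries, against 5.58, 6.72 and 6.21 in KYSE150 normoxia. The groups did not overlap, and the log2 difference was 1.27 ± 0.08 (SE; limma, adjusted p = 1.61e-08). CTTN had 82.9, 80.9 and 77.8 FPKM in KYSE410 normoxia, against 47.0, 43.4 and 43.0 in KYSE150 normoxia. Every KYSE410 library lay above every KYSE150 library, and the log2 difference was 0.84 ± 0.06 (adjusted p = 3.31e-08). The other 3 differed by less: PPFIA1 by 0.50 ± 0.12 (adjusted p = 0.00180), FADD by 0.36 ± 0.11 (adjusted p = 0.0120) and CCND1 by 0.35 ± 0.07 (adjusted p = 5.03e-04), with no overlap between the lines in any of them. How many of all genes part the groups without overlap was not computed, so lack of overlap is a description here and below. Without KYSE150 normoxia replicate 1, FADD's difference was 0.30 with an adjusted p of 0.0501. Without KYSE150 normoxia replicate 2, that of PPFIA1 was 0.33 (adjusted p = 4.56e-04).

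SHANK2 separated the lines by a wider margin at a low level. Its mean was 2.03 FPKM in KYSE410 normoxia and 0.0389 FPKM in KYSE150 normoxia, a ratio of 52.2, which was not tested because the gene fell below the filter. SHANK2 encodes a scaffold protein of excitatory synapses. In the order of the chromosome, the differences between the lines were 0.35 for CCND1, 1.27 for LTO1, 0.36 for FADD, 0.50 for PPFIA1 and 0.84 for CTTN.

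Hypoxia was then set against normoxia within each line. In KYSE410, 6 of the 8 genes were tested; CCND1, LTO1, FADD, PPFIA1 and SHANK2 fell and CTTN rose. Over all 12054 genes tested in that line 83.1% were called, 51.9% lower and 31.2% higher, so most genes were called there and the members' count is given as a description. In KYSE150, 5 genes were tested; CCND1, LTO1 and FADD fell, and PPFIA1 and CTTN were not called. There 62.3% of 12692 genes were called, 38.8% lower and 23.5% higher. The median change over all genes was -0.21 in KYSE410 and -0.13 in KYSE150 on the log2 scale, and changes are to be read against these shifts. With libraries scaled by the median of ratios, the share of higher calls among all calls was 50.1% in KYSE410 and 50.6% in KYSE150, against 37.6% and 37.7% as deposited. In bulk RNA, fewer cells expressing a gene and less RNA per cell cannot be told apart.

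**Figure D2:**
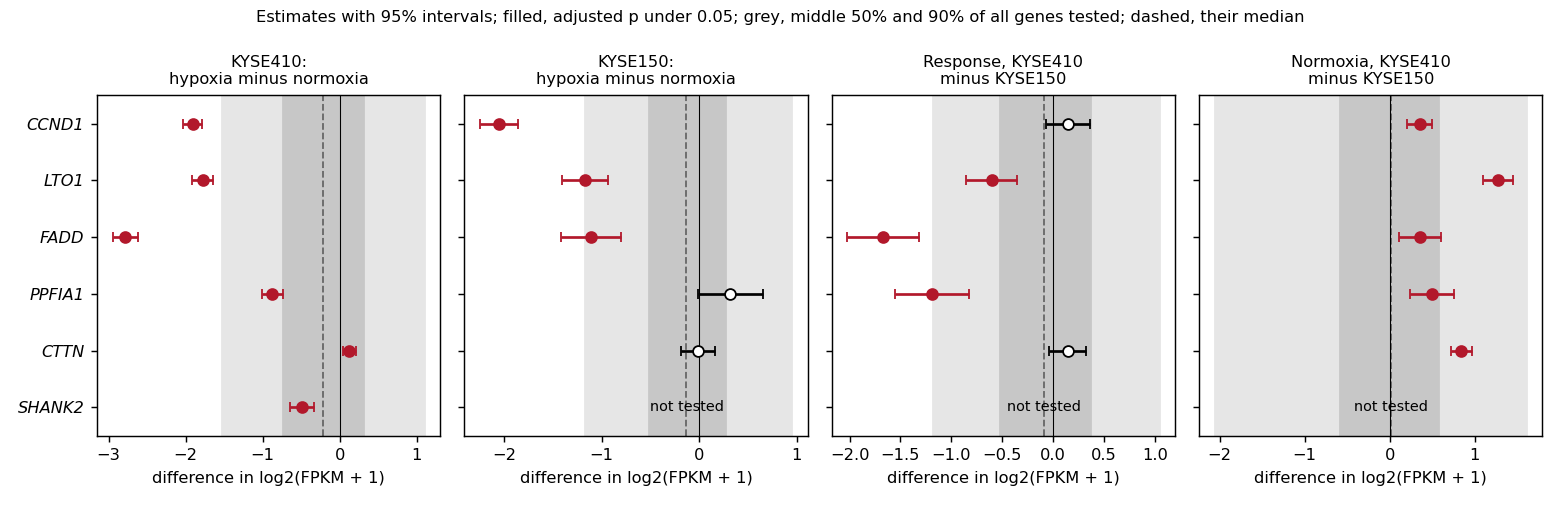
Differences in log2(FPKM + 1) of the tested genes with 95% intervals, in 4 panels: hypoxia minus normoxia in KYSE410 and in KYSE150, the difference between these responses, and KYSE410 minus KYSE150 in normoxia. Grey bands hold the middle 50% and 90% of all genes tested; CCND1, LTO1 and FADD lie below the wider band in KYSE410; in KYSE150 CCND1 lies below it, LTO1 at its edge and FADD inside it.

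CCND1 encodes cyclin D1, which activates CDK4 and CDK6 to phosphorylate the retinoblastoma protein in G1. In KYSE410 it had 14.04, 14.09 and 12.38 FPKM in hypoxia, against 52.5, 54.2 and 53.2 in normoxia. In KYSE150 it had 10.1, 8.66 and 9.04 FPKM in hypoxia, against 43.1, 38.7 and 43.0 in normoxia. The 4 groups did not overlap, and both hypoxic groups lay below both normoxic ones. The level in hypoxia was 25.3% of that in normoxia in KYSE410 and 22.3% in KYSE150. The log2 changes were -1.91 ± 0.05 (limma, adjusted p = 1.27e-08) in KYSE410 and -2.05 ± 0.08 (adjusted p = 1.45e-06) in KYSE150. Of all genes tested, 1.89% in KYSE410 and 0.615% in KYSE150 had a lower change. The difference between the responses, KYSE410 minus KYSE150, was 0.15 ± 0.10 (95% interval -0.07 to 0.36, adjusted p = 0.206), and it was -0.09 with libraries scaled to a common sum. It passed the threshold at 0.26 with median of ratios scaling (adjusted p = 0.0393) and at 0.26 with the trend on transcript length and GC content removed (adjusted p = 0.0131).

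LTO1 is an adapter that, with YAE1, brings the cytosolic iron-sulfur assembly machinery to ABCE1, a ribosome recycling factor. In KYSE410 it had 3.79, 4.08 and 4.26 FPKM in hypoxia, against 17.3, 15.7 and 16.0 in normoxia. KYSE150 had 2.06, 1.99 and 2.48 FPKM in hypoxia, against 5.58, 6.72 and 6.21 in normoxia. All 4 groups were apart, with KYSE410 above KYSE150 at each oxygen level. The log2 changes were -1.78 ± 0.06 (adjusted p = 2.88e-08) in KYSE410 and -1.18 ± 0.10 (adjusted p = 4.42e-05) in KYSE150. The fall was larger in KYSE410, by -0.60 ± 0.11 (limma, interaction, adjusted p = 6.92e-04). In FPKM the hypoxic level was 24.8% of the normoxic one in KYSE410 and 35.2% in KYSE150. LTO1 in both lines fell together with CCND1, whose end it overlaps.

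FADD, the adapter that links death receptors to caspase-8, had the largest fall of any member in KYSE410. There it had 2.162, 1.770 and 2.204 FPKM in hypoxia, against 20.7, 20.3 and 18.7 in normoxia. In KYSE150 it had 7.21, 5.46 and 7.17 FPKM in hypoxia, against 14.0, 18.0 and 14.2 in normoxia. No groups overlapped, and the order of the lines turned: KYSE410 was the higher line in normoxia and the lower one in hypoxia. Hypoxic FADD was 10.3% of the normoxic level in KYSE410 and 42.9% in KYSE150. The log2 changes were -2.78 ± 0.07 (adjusted p = 9.86e-09) and -1.11 ± 0.13 (adjusted p = 2.16e-04), and 0.241% and 5.89% of all genes tested had a lower change in KYSE410 and KYSE150. The difference between the responses was -1.67 ± 0.16 (limma, interaction, adjusted p = 3.70e-06).

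PPFIA1 encodes liprin-alpha-1, a scaffold of focal adhesions that binds LAR-type receptor phosphatases. In KYSE410 it had 11.9, 11.2 and 11.1 FPKM in hypoxia, against 23.4, 21.7 and 20.2 in normoxia. In KYSE150 it had 19.9, 18.6 and 18.6 FPKM in hypoxia, against 16.5, 11.6 and 17.7 in normoxia. The hypoxic libraries lay below the normoxic ones in KYSE410 and above them in KYSE150, with no overlap in either line. PPFIA1 fell by 0.87 ± 0.06 on the log2 scale in KYSE410 (adjusted p = 1.51e-06). Its change in KYSE150 was 0.32 ± 0.14 and was not called (adjusted p = 0.0830), but it was at 0.47 with median of ratios scaling (adjusted p = 0.0206). Without KYSE150 normoxia replicate 2, its lowest normoxic library, the change was 0.15 and called (adjusted p = 0.0457); without KYSE150 normoxia replicate 3 it was 0.43 (adjusted p = 0.0322). The difference between the responses was -1.19 ± 0.17 (interaction, adjusted p = 7.07e-05), and -1.02 without KYSE150 normoxia replicate 2. The longest annotated transcript of PPFIA1 has 6705 bases, and replicate 2 deviated from its group along transcript length (rho of -0.633 by Spearman, across genes and so not over independent replicates); the part of this in the PPFIA1 values was not tested.

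CTTN encodes cortactin, which binds the Arp2/3 complex at branched actin and stabilises invadopodia. In KYSE410 it had 84.6, 89.7 and 89.4 FPKM in hypoxia, against 82.9, 80.9 and 77.8 in normoxia. KYSE150 had 47.1, 42.2 and 42.6 FPKM in hypoxia, against 47.0, 43.4 and 43.0 in normoxia. The KYSE410 groups were apart by a small margin and the KYSE150 groups overlapped. CTTN rose by 0.13 ± 0.04 on the log2 scale in KYSE410 (adjusted p = 0.0146), but the change was -0.12 (adjusted p = 0.0215) with libraries scaled to a common sum and 0.04 (adjusted p = 0.384) after quantile normalization. Leaving out KYSE410 hypoxia replicate 2 or KYSE410 normoxia replicate 3 also ended the call (adjusted p = 0.0551 and 0.0558). In KYSE150 the change was -0.02 ± 0.08 (95% interval -0.19 to 0.16, adjusted p = 0.859), and its sign turned under 5 alternatives. The difference between the responses was 0.14 ± 0.08 (95% interval -0.04 to 0.32, adjusted p = 0.148), and it was -0.11 with common sum and 0.25 with median of ratios scaling.

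At the distal end, SHANK2 in KYSE410 had 1.08, 1.21 and 1.19 FPKM in hypoxia, against 2.001, 2.140 and 1.957 in normoxia. It fell by 0.49 ± 0.07 on the log2 scale (adjusted p = 1.73e-04), and by 0.24 with the trend on transcript length and GC content removed (adjusted p = 0.00906). In KYSE150 it had 0.0366, 0.0243 and 0.0702 FPKM in hypoxia, against 0.0302, 0.0211 and 0.0655 in normoxia, and the groups overlapped.

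The remaining members were close to 0. ANO1, a calcium-activated chloride channel also known as TMEM16A, had 0.108, 0.0883 and 0.177 FPKM in KYSE410 hypoxia, against 0, 0.0283 and 0.0144 in KYSE410 normoxia. In KYSE150 it had 0, 0.00972 and 0 FPKM in hypoxia, against 0.00723, 0.0182 and 0.0292 in normoxia. FGF19, an endocrine fibroblast growth factor that acts through FGFR4 and the co-receptor beta-klotho, was listed at 0 in the 3 KYSE150 hypoxia libraries, against 0.166, 0.0390 and 0.105 FPKM in KYSE150 normoxia. Both genes fell below the filter, and no fold is given for them.

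Since FPKM depends on how a library is scaled, the members were also set against CTTN within each library, a ratio that no scaling of a library can change. CTTN served because it is the most abundant member, and it was chosen after its values were seen. The log2 ratio of CCND1 to CTTN averaged -2.71 ± 0.13 in KYSE410 hypoxia and -0.59 ± 0.06 in KYSE410 normoxia, against -2.25 ± 0.03 in KYSE150 hypoxia and -0.10 ± 0.09 in KYSE150 normoxia (SD, n = 3). Hypoxia minus normoxia was thus -2.11 in KYSE410 and -2.15 in KYSE150 for CCND1. For LTO1 the same difference was -2.14 and -1.49, for FADD -3.42 and -1.21, and for PPFIA1 -1.06 and 0.36. The groups did not overlap in any of these 8 comparisons. How many of all genes part the groups by this ratio was not computed, so this count is a description. By limma on levels, 83.1% of all genes tested were called in KYSE410 and 62.3% in KYSE150. The 8 comparisons each gave an exact two-sided permutation p of 0.1, the smallest that 3 against 3 libraries allow, and 0.1 after Benjamini-Hochberg adjustment over the 8. Such a ratio shows unequal change of the genes and not which of them changed.

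**Figure D3:**
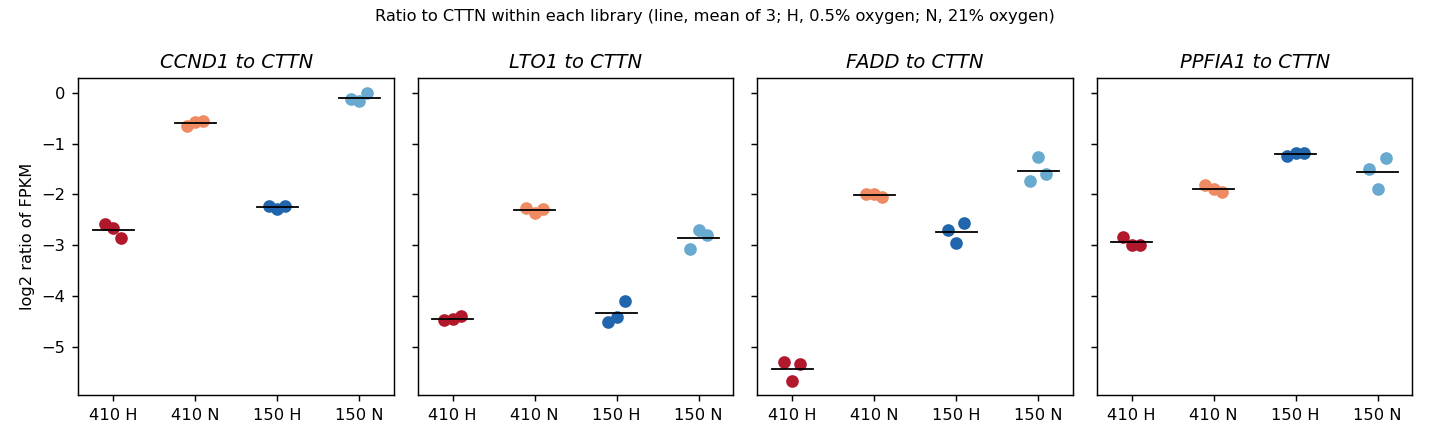
Log2 ratio of CCND1, LTO1, FADD and PPFIA1 to CTTN within each library, with points for libraries and lines for the mean of 3. In KYSE410 all 4 ratios are lower in hypoxia; in KYSE150 the ratio of PPFIA1 is higher in hypoxia and the other 3 are lower.

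Of the 5 members tested for it, 3 (LTO1, FADD and PPFIA1) responded differently in the lines, all with the lower change in KYSE410. Of 12653 genes tested for it, 63.3% were called, 36.0% with the lower and 27.3% with the higher change in KYSE410, and the median difference was -0.09. The order of responses along the block was not the same in the lines. In KYSE410 FADD fell most, followed by CCND1 and LTO1, whose intervals overlap, and then by PPFIA1 and SHANK2. As a share of the normoxic FPKM, CCND1 and LTO1 stood at 25.3% and 24.8% there. In KYSE150 CCND1 fell most, and LTO1 and FADD followed with changes of -1.18 and -1.11, whose intervals overlap. Across genes, the difference between the responses ran with transcript length (Spearman rho -0.347). With the length and GC trend removed, the difference was -1.83 for FADD, -0.95 for PPFIA1 and -0.55 for LTO1, all 3 still called (adjusted p at most 0.00101).

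Members were also compared by their pattern over the 12 libraries, as a description that shares the 4 groups. Pearson's r of log2(FPKM + 1) between members was 0.904 for CCND1 and LTO1, 0.806 for CCND1 and FADD, 0.682 for LTO1 and FADD, and 0.674 for FADD and PPFIA1. PPFIA1 had 0.372 with LTO1 and 0.334 with CCND1. CTTN had 0.471 with LTO1, 0.156 with CCND1, -0.205 with PPFIA1 and -0.297 with FADD. Among 8181 genes averaging 5 FPKM or more, the patterns most like that of a member came from outside the block. They were SMIM13 (0.998) and MAK16 (0.997) for CCND1, PSMD11 (0.995) and MICALL1 (0.994) for LTO1, WDR53 (0.992) and MED22 (0.991) for FADD, REST (0.985) and NCOA6 (0.981) for PPFIA1, and MDK (0.995) and MYO1D (0.994) for CTTN. WDR53, for example, averaged 1.28 FPKM in KYSE410 hypoxia and 12.6 in KYSE410 normoxia, against 3.75 in KYSE150 hypoxia and 9.79 in KYSE150 normoxia.

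The partners of each member come from lists chosen by known function. Their counts stand against 31.2% of all genes called higher and 51.9% lower in KYSE410, and 23.5% higher and 38.8% lower in KYSE150. The lists are short, and the counts are a description. Cyclin D1 works with CDK4 or CDK6 and is opposed by CDK inhibitors. Of 20 genes listed around it, 17 were tested in KYSE410, where 10 rose and 6 fell, with a median change of 0.20 against -0.21 over all genes. Of 19 tested in KYSE150, 6 rose and 10 fell; their median was -0.33 against -0.13. CDK6 averaged 14.12 FPKM in KYSE410 hypoxia and 26.0 in KYSE410 normoxia, against 9.36 in KYSE150 hypoxia and 37.2 in KYSE150 normoxia, and fell in both lines (-0.84 and -1.82). CDK4 rose by 0.31 in KYSE410 and fell by 0.33 in KYSE150. The other D-type cyclins were split between the lines. CCND2 had 33.2 FPKM in KYSE410 hypoxia and 45.2 in KYSE410 normoxia, against 0.609 in KYSE150 hypoxia and 1.33 in KYSE150 normoxia. CCND3 had 6.39 and 10.6 FPKM in KYSE410 hypoxia and normoxia, against 19.2 and 46.2 in KYSE150 hypoxia and normoxia, and fell in both (-0.64 and -1.22). The CDK inhibitors CDKN2D and CDKN1A rose in both lines, by 0.55 and 0.48 in KYSE410 and by 1.43 and 1.24 in KYSE150. CDKN2C, another inhibitor gene, rose by 1.12 in KYSE410 and by 0.93 in KYSE150. CDKN2B, of the same family as CDKN2C, fell by 1.89 in KYSE410 and by 1.14 in KYSE150. E2F3, a transcription factor held by the retinoblastoma protein, fell by 1.33 in KYSE410 and by 0.62 in KYSE150. FBXO31, which targets cyclin D1 for degradation, fell by 1.14 in KYSE410, and its change in KYSE150 was 0.08 (adjusted p = 0.469); the difference between these responses was -1.22 (adjusted p = 3.37e-06).

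In the FADD list, CASP8, RIPK1 and CFLAR fell in both lines. CASP8, the initiator caspase that FADD recruits, averaged 2.86 FPKM in KYSE410 hypoxia and 16.2 in KYSE410 normoxia, against 4.51 in KYSE150 hypoxia and 14.0 in KYSE150 normoxia. Its log2 change was -2.16 in KYSE410 and -1.44 in KYSE150, and the difference of -0.71 was called (adjusted p = 5.02e-04). RIPK1, a kinase of the same complex, fell by 1.57 in KYSE410 and by 1.04 in KYSE150. CFLAR, which encodes the caspase-8 inhibitor cFLIP, fell by 1.32 and 0.59. The receptor TNFRSF10A fell by 1.16 in KYSE410, and its change in KYSE150 was -0.12 (adjusted p = 0.381). TRADD, an adapter of TNF receptor 1, rose by 0.51 in KYSE410 and by 0.52 in KYSE150. Over the list, 11 of 14 genes were tested in KYSE410 (3 rose, 7 fell; median -0.33 against -0.21 over all genes) and 10 in KYSE150 (1 rose, 5 fell; median -0.21 against -0.13).

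**Figure D4:**
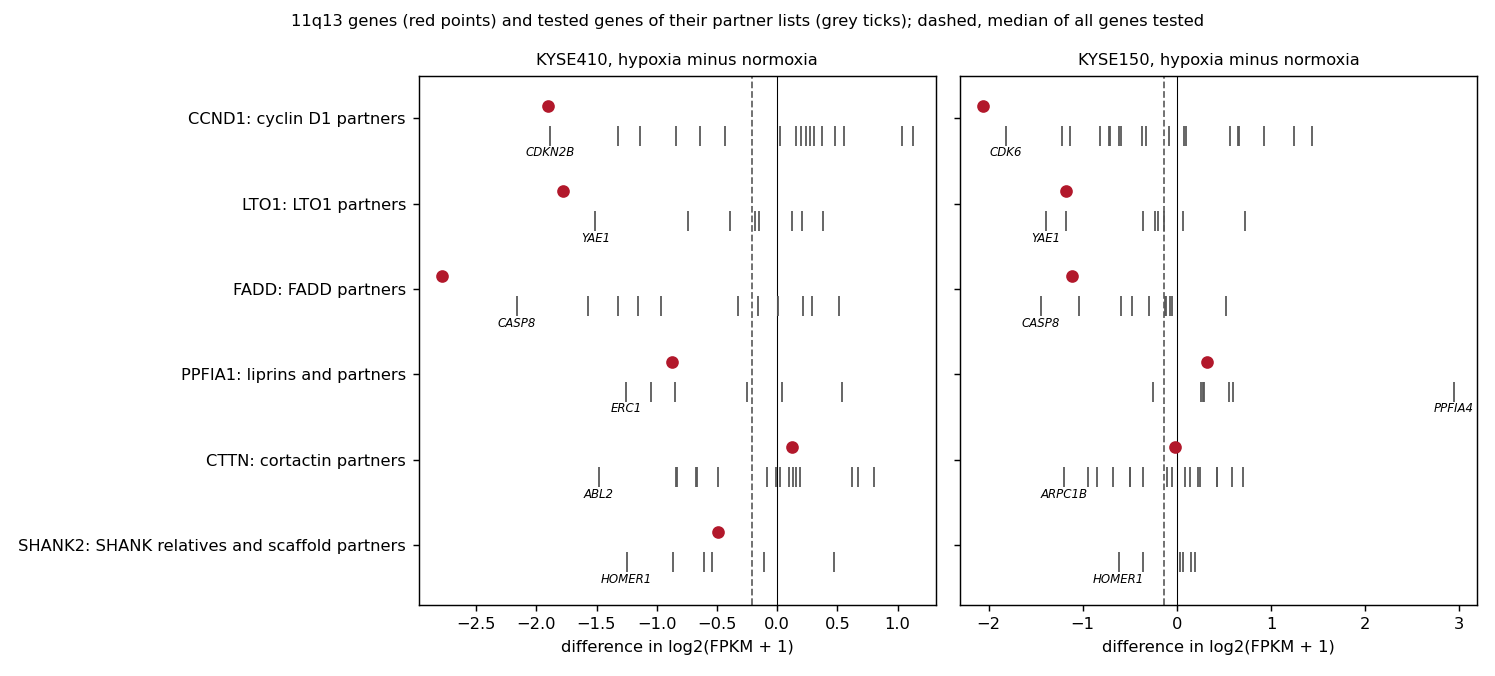
Differences in log2(FPKM + 1), hypoxia minus normoxia, in KYSE410 and KYSE150, for 6 members (red points) and the tested genes of their partner lists (grey ticks), with the partner of the largest change named. CASP8 lies near FADD and YAE1 near LTO1 in both lines, while PPFIA4 lies far above PPFIA1 in KYSE150.

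LTO1's direct partner YAE1 averaged 10.8 FPKM in KYSE410 hypoxia and 32.6 in KYSE410 normoxia, against 4.99 in KYSE150 hypoxia and 14.8 in KYSE150 normoxia. It fell by 1.51 in KYSE410 and by 1.39 in KYSE150, and like LTO1 it was higher in KYSE410 than in KYSE150 in normoxia (log2 difference 1.09, adjusted p = 6.24e-08). ABCE1, their client, fell by 1.18 in KYSE150 and was not called in KYSE410 (-0.15, adjusted p = 0.0724). The difference between these responses was 1.03 (adjusted p = 1.24e-05). All 8 genes of this list were tested. In KYSE410 3 rose and 4 fell (median -0.17 against -0.21 over all genes). In KYSE150 1 rose and 4 fell (median -0.22 against -0.13).

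Among the liprins and their partners, 6 of 11 were tested in KYSE410 (1 rose, 4 fell; median -0.55 against -0.21 over all genes) and 7 in KYSE150 (3 rose, none fell; median 0.29 against -0.13). ERC1, PPFIBP2 and PPFIBP1 fell in KYSE410 by 1.25, 1.04 and 0.85, alongside PPFIA1. Of these, PPFIBP2 averaged 0.449 FPKM in KYSE410 hypoxia. PPFIBP2 passed the filter in that line only through its normoxic level, so its fall is given as a description. PPFIA4, the liprin-alpha paralogue, averaged 10.1 ± 0.697 FPKM in KYSE150 hypoxia and 0.440 ± 0.137 in KYSE150 normoxia, a log2 change of 2.94 ± 0.10 (adjusted p = 7.67e-07). It passed the filter in KYSE150 only through its hypoxic level, so its test is given as a description. In KYSE410 PPFIA4 was at most 0.0345 FPKM in hypoxia and 0.00534 in normoxia. For cortactin, 16 of 19 partners were tested in KYSE410 (7 rose, 7 fell; median 0.01 against -0.21) and 17 in KYSE150 (5 rose, 6 fell; median -0.05 against -0.13). Of the Arp2/3 subunits, ARPC5L fell in both lines (-0.83 in KYSE410 and -0.84 in KYSE150), and ARPC5 rose in both, by 0.81 in KYSE410 and by 0.43 in KYSE150. ARPC1B and ARPC1A had small changes in KYSE410 (0.10 and 0.13, adjusted p = 0.0417 and 0.0331) and fell in KYSE150 by 1.19 and 0.95. WIPF1, which binds the Arp2/3 activator N-WASP, was listed at 0 in the 3 KYSE410 normoxia libraries and averaged 14.0 FPKM in KYSE150 normoxia.

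ANO1 and FGF19 were near 0, and some of their relatives were not. ANO6, a phospholipid scramblase of the anoctamin family, averaged 41.0 FPKM in KYSE410 hypoxia and 29.5 in KYSE410 normoxia, against 28.5 in KYSE150 hypoxia and 18.2 in KYSE150 normoxia, and rose in both (0.46 and 0.65). Of 9 anoctamins listed, 5 were tested in KYSE410 (2 rose, 1 fell) and 6 in KYSE150 (3 rose, none fell). Of the receptors that FGF19 and its relatives use, FGFR2 was at 8.30 FPKM in KYSE410 hypoxia and 14.8 in KYSE410 normoxia and at most 0.0869 in every KYSE150 library. FGFR1 and FGFR3 were lower in KYSE410 than in KYSE150. Both passed the filter only through their KYSE150 levels, so their tests are given as a description. FGFR1 averaged 0.0178 FPKM in KYSE410 hypoxia and 0.0568 in KYSE410 normoxia, against 7.79 in KYSE150 hypoxia and 6.95 in KYSE150 normoxia (normoxic log2 difference -2.91, adjusted p = 4.22e-13). FGFR3 averaged 0.982 and 0.551 FPKM in KYSE410 hypoxia and normoxia, against 7.39 and 5.17 in KYSE150 hypoxia and normoxia (normoxic log2 difference -1.99, adjusted p = 4.50e-09). FGFR4 was at 1.92 and 2.05 FPKM in KYSE410 hypoxia and normoxia, against 4.06 and 5.61 in KYSE150 hypoxia and normoxia. KLB, which encodes beta-klotho, averaged 1.13 FPKM in KYSE150 normoxia and less than that in the other groups. FGF21, a second endocrine factor, was listed at 0 in the hypoxia libraries of both lines, against 0.504 FPKM in KYSE410 normoxia and 3.92 FPKM in KYSE150 normoxia. For SHANK2, the scaffold partners HOMER1, HOMER2, HOMER3 and DLGAP4 fell in KYSE410 (by 1.25, 0.86, 0.61 and 0.54), which is 4 of 6 tested where 51.9% of all genes were called lower. In KYSE150 HOMER1 fell by 0.62, which is 1 of 6 tested where 38.8% of all genes were called lower.

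Around the block, 40 further genes of the tables start within 1 Mb of it, of which 22 stayed under 1 FPKM in every group. In KYSE410 15 were tested, where 7 rose and 6 fell, with a median change of -0.06 against -0.21 over all genes. Of 17 tested in KYSE150, 10 rose and 5 fell, and their median was 0.45 against -0.13. The shares over all genes tested were 31.2% higher and 51.9% lower in KYSE410, and 23.5% and 38.8% in KYSE150. These counts too are a description. MYEOV, the nearest proximal neighbour at 1 FPKM or more, averaged 1.58 FPKM in KYSE410 hypoxia and 3.34 in KYSE410 normoxia, against 0.425 in KYSE150 hypoxia and 0.834 in KYSE150 normoxia. It fell by 0.78 in KYSE410 and was higher in KYSE410 than in KYSE150 in normoxia by 1.24. MYEOV passed the filter for the comparison of the lines only through its KYSE410 levels, so that difference is given as a description. CPT1A, which imports fatty acids into mitochondria, went opposite ways: it fell by 0.74 in KYSE410 and rose by 0.79 in KYSE150 (difference -1.54, adjusted p = 1.74e-06). IGHMBP2, a helicase gene, did the same, with -0.65 and 0.68 (difference -1.34, adjusted p = 3.18e-07).

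On the distal side, DHCR7, the last enzyme of cholesterol synthesis, is the first such neighbour past SHANK2. It was listed at 0 in the 3 KYSE410 normoxia libraries and at most at 0.0133 FPKM in KYSE410 hypoxia, against 30.6 FPKM in KYSE150 hypoxia and 18.3 in KYSE150 normoxia. NADSYN1, the next gene, averaged 8.90 and 6.65 FPKM in KYSE410 hypoxia and normoxia, against 7.498 and 5.242 in KYSE150 hypoxia and normoxia. The normoxic difference between the lines, KYSE410 minus KYSE150, was 0.30 for NADSYN1 (adjusted p = 0.00373). FAM86C1P fell in both lines, by 2.19 in KYSE410 and by 1.67 in KYSE150. It averaged 0.395 and 5.39 FPKM in KYSE410 hypoxia and normoxia, against 0.747 and 4.62 in KYSE150 hypoxia and normoxia. In both lines it passed the filter only through its normoxic level, so its tests are given as a description. The gene also belongs to a family of near-identical copies, so its values are uncertain. PPP6R3, a phosphatase subunit gene that lies proximal to the block, fell by 1.24 in KYSE410 and by 0.97 in KYSE150.

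**Figure D5:**
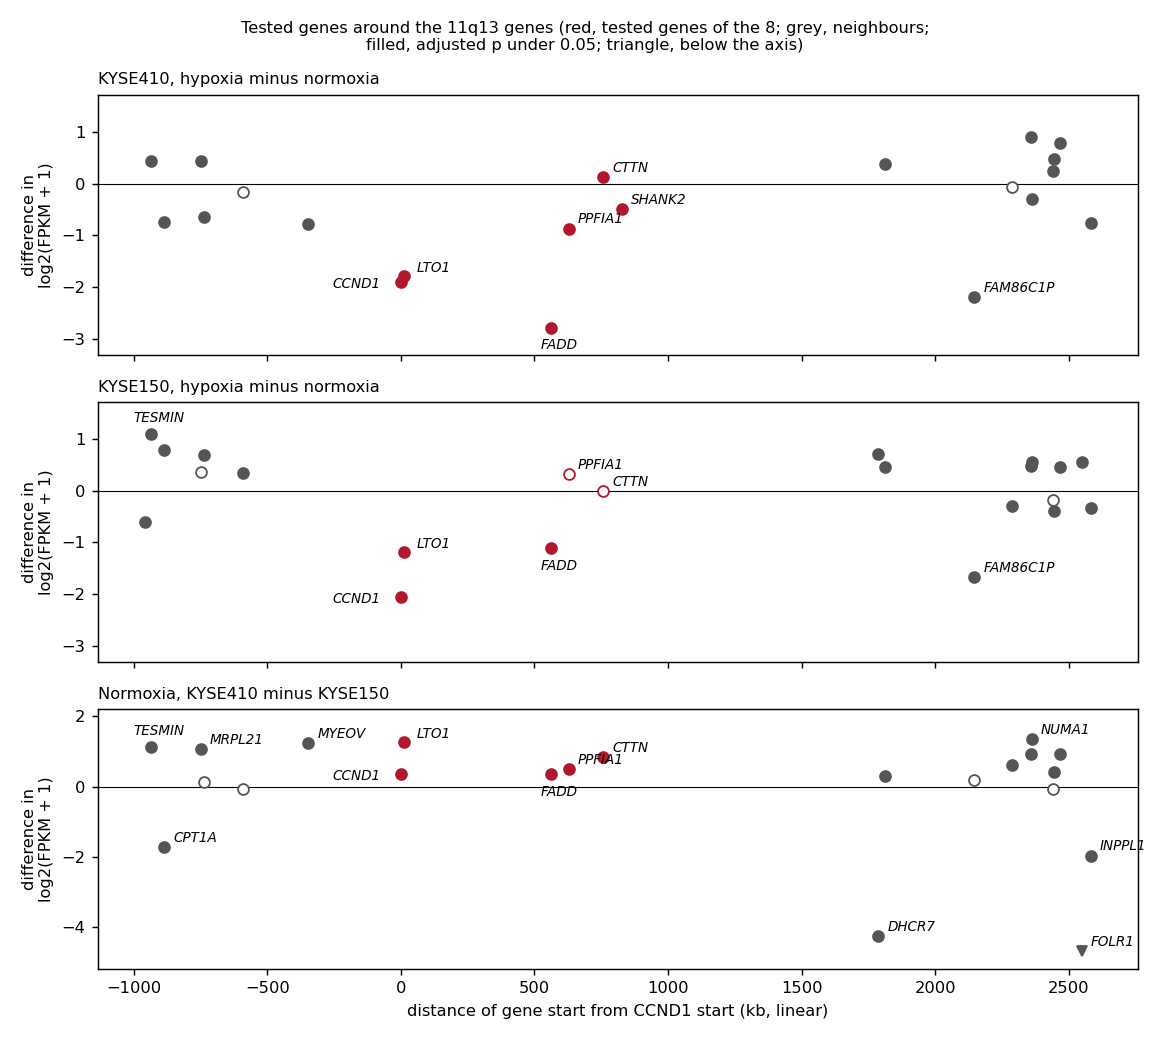
Differences in log2(FPKM + 1) of tested genes against the distance of their start from that of CCND1 in kb, with the tested genes of the 8 in red, neighbours in grey and called genes filled. FAM86C1P aside, CCND1, LTO1 and FADD lie below every tested neighbour within 1 Mb in both lines. FAM86C1P itself lies above FADD alone of the 3 in KYSE410 and above CCND1 alone of them in KYSE150. It passed the filter in both lines only through its normoxic level. DHCR7, INPPL1, CPT1A and FOLR1 lie below -1 in the comparison of the lines in normoxia. For that comparison DHCR7 and FOLR1 passed the filter only through their KYSE150 levels, and MYEOV only through its KYSE410 levels. FOLR1 is drawn as a triangle since its value lies below the axis.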

How the data were processed

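The members and gene lists were chosen with earlier results of these data known. Per the labels' protocols, TRIzol was used for extraction and beads for mRNA capture. The submitters' processing notes name bcl2fastq 2.20, fastp 0.22.0, HISAT2 2.2.1 and hg38. Which quantifier, annotation and strand setting were used is not given in the sources used here. Per the file headers and values, the authors deposited 1 table per line, in a unit taken to be FPKM (column sums of 351501 to 425094). Low values showed no steps of whole reads, which leaves the depth unknown and allows no counting intervals.

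On log2(FPKM + 1), linear models with empirical Bayes and a mean trend were run in limma 3.58.1 (R 4.3.3). Genes averaging 1 FPKM or more over the libraries of the fit were tested: 6 libraries per line, or all 12 for the normoxic difference and the interaction. Benjamini-Hochberg adjustment covered all genes tested. Ratios to CTTN used scipy 1.17.1. Each fit was first tested on simulated data. Tables were read with pandas 2.3.3 and numpy 2.4.6 in Python 3.11.15 and plotted with matplotlib 3.10.9. Positions are from GENCODE 29. All 8 members are named; of each list, up to 4 called genes per comparison with the largest change, and per member the 2 genes most alike. Further list genes, the receptors and cyclins among them, were named after their values were seen. Alternatives covered the pseudocount, filter, scaling, length and GC trend, variance, threshold, replicate block and each library left out; the ratio to CTTN was added after seeing the data.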

Additional observations from a re-analysis of the deposited data

Results flagged for a closer look

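The hypoxia responses of 3 of the 5 members tested differed between KYSE410 and KYSE150 by limma's interaction term. Of all 12653 genes tested, 63.3% were called by the same term, so the count is a description. For FADD the response in KYSE410 minus that in KYSE150 was -1.67 ± 0.16 (SE) on the log2 scale, with falls of 2.78 in KYSE410 and 1.11 in KYSE150. For PPFIA1 it was -1.19 ± 0.17, with changes of -0.87 in KYSE410 and 0.32 in KYSE150, the second of which was not called. For LTO1 it was -0.60 ± 0.11, with falls of 1.78 in KYSE410 and 1.18 in KYSE150. In KYSE410 the oxygen level and the library set, as read from the sample-sheet numbers alone, cannot be told apart, which touches all 3 differences.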

How the results depend on the processing

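The falls of CCND1, LTO1 and FADD in both lines, those of PPFIA1 and SHANK2 in KYSE410, and the differences in response of FADD (-2.02 to -1.48), PPFIA1 (-1.43 to -0.95) and LTO1 (-0.82 to -0.41) kept their direction and call under every limma alternative run. The ratio to CTTN cannot pass the threshold with 3 against 3 libraries. The count of members with a difference in response was 3 of 5 tested, where 63.3% of 12653 genes were called. It was 5 without a filter (with SHANK2 and with ANO1, which is near 0). It was also 5 with median of ratios scaling and with the length and GC trend removed (both with CCND1 and CTTN). Without a filter, 4455 of 26115 genes were called higher and 5133 lower. With median of ratios scaling 3987 of 12653 were higher and 3939 lower. With the trend removed 3391 of 12176 were higher and 4581 lower. Signs turned for CTTN in KYSE150 (median of ratios 0.14, quantile 0.10, leaving out 1 library -0.066 to 0.022), for CTTN in KYSE410 (common sum -0.12), for CCND1 in the difference in response (common sum -0.093) and for CTTN there (quantile -0.068, common sum -0.11); the cause was not tested. CTTN's difference in response was called with median of ratios scaling (0.25, adjusted p = 0.0174) and without the length and GC trend (0.19, adjusted p = 0.0471). PPFIA1 in KYSE150 was called with median of ratios (0.47, adjusted p = 0.0206), quantile normalization (0.43, adjusted p = 0.0292) and the trend removed (0.28, adjusted p = 0.0125), but not with common sum scaling. In the difference in response, common sum scaling left 28.2% of calls higher, against 43.1% as deposited, and in KYSE410 26.8%, against 37.6%. When 1 library is left out of a group, the fit pools the spread of the others.

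With the replicate number as a block, the counts of members called stayed at 3 in KYSE150, 6 in KYSE410, 5 for the normoxic difference and 3 for the difference in response, and no call changed. Same-numbered libraries of a line deviated from their group means with correlations of -0.07 to 0.08, and differently numbered ones with -0.10 to 0.11. No effect shared by number was visible, and whether the numbers pair the libraries cannot be told from this. Over all genes the block gave 7757 calls in KYSE150, 9931 in KYSE410, 9957 for the normoxic difference and 7848 for the difference in response, against 7906, 10017, 10019 and 8013 without it. Depth is unknown, so how low a level could be told from 0 cannot be stated for ANO1, FGF19 and SHANK2 in KYSE150.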

Other observations

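Further distal on the same arm, 13 of 14 chosen genes of 11q13.5 to q14.1 were listed in a table. Of these, 10 were tested in KYSE410, with 5 called higher and 4 lower (median change 0.14). KYSE150 had 11 tested, 7 of them called higher and 2 lower (median change 0.29). All genes tested gave 31.2% higher and 51.9% lower calls in KYSE410 (median -0.21). The same shares were 23.5% and 38.8% in KYSE150 (median -0.13), and the counts are a description. GAB2, a docking protein of growth factor receptors, averaged 2.35 FPKM in KYSE410 hypoxia and 8.43 in KYSE410 normoxia, against 10.8 in KYSE150 hypoxia and 3.02 in KYSE150 normoxia. It fell by 1.49 in KYSE410 and rose by 1.57 in KYSE150 (difference -3.06 ± 0.15, limma, adjusted p = 1.85e-08). NDUFC2, a subunit of respiratory complex I, moved the other way, with a rise of 0.52 in KYSE410 and a fall of 1.38 in KYSE150 (difference 1.90 ± 0.12, adjusted p = 1.69e-07). PAK1, a kinase of actin remodelling, was higher in KYSE410 than in KYSE150 in normoxia, by 1.38 on the log2 scale. FOLR1, a folate receptor gene at the edge of the window, averaged 0.721 FPKM in KYSE410 hypoxia and 0.154 in KYSE410 normoxia, against 1682 in KYSE150 hypoxia and 1157 in KYSE150 normoxia.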
